A study of Mus musculus with 12 samples.

Results

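The T cells of the small intestinal lamina propria, the connective tissue under the gut epithelium, were compared between mice that had received IL-23 receptor knockout Th1 cells and mice that had received control Th1 cells. One single-cell library per genotype was available, both from batch 2. A cell was kept when its UMIs (unique molecular identifiers, each counting 1 captured RNA molecule) of Cd3d, Cd3e and Cd3g summed to 3 or more and its mitochondrial genes made up 10% or less of its UMIs. This left 808 of 1606 cells (50.3%, exact binomial 95% interval 47.8 to 52.8%) in the KO library and 2043 of 2250 cells (90.8%, 89.5 to 92.0%) in the control library, in all 2851 of the 32763 cells of the series. Transferred KO cells carried Il23r eGFP/eGFP, and control cells carried Il23r wt/eGFP, so 1 allele of the control cells held eGFP too. The sources used here do not give the strain of the recipients, how many animals went into a library, whether recipients had T cells of their own, or whether each library came from a separate animal. With 1 library per genotype there is no replicate error, so no test between the genotypes was possible. All intervals below are 95% intervals that cover counting error only. Higher and lower describe these libraries and not the genotypes in general.

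IL-23 is a cytokine made by myeloid cells of the gut. Its receptor pairs IL23R with the IL-12 receptor subunit IL12RB1 and signals through the kinases JAK2 and TYK2, mainly to STAT3. In T cells the pathway is known for maintaining Th17 cells and for driving intestinal inflammation. Th1 cells are CD4 T cells that depend on the transcription factor T-bet and make interferon-gamma.

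Kept cells held 1899564 UMIs in the KO library and 6117561 UMIs in the control library, with a median of 2277 UMIs and 1040.5 genes per KO cell and 2660 UMIs and 1165 genes per control cell. The gate removed different shares of the libraries: 533 KO cells and 32 control cells had no CD3 UMI. Just under the gate, at 2 CD3 UMIs, lay 111 KO cells and 92 control cells, and just inside it, at 3 UMIs, 84 and 143 cells. Before the gate, 124 of 1606 KO cells and 39 of 2250 control cells exceeded the mitochondrial limit of 10%. The median mitochondrial share of kept cells, taken after that limit, was 2.08% in the KO library and 2.09% in the control library. Only 3 cell barcodes were shared between the 2 libraries, and 1 to 18 with any other library of the series. Levels are given as CPM, the UMIs of a gene per 1000000 UMIs of all kept cells of the library. Because 3′ tags were counted, a CPM value does not depend on transcript length.

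T cell markers that the gate did not use were present in both libraries. The 8 measured ones besides Cd3d, Cd3e and Cd3g summed to 4405 CPM in KO cells and 4604 CPM in control cells, and none of them differed by 1.5-fold. Cd4, the co-receptor, stood at 250 CPM (228 to 273) in KO cells and 203 CPM (191 to 214) in control cells. Cd8a, the co-receptor of cytotoxic T cells, stood at 2.63 CPM in KO cells and 12.6 CPM in control cells, and 8 KO cells (0.99%) and 76 control cells (3.72%) held any UMI of the CD8 genes. The B cell genes Cd79a, Ms4a1 and Pax5, the macrophage genes Adgre1, Csf1r and Fcgr1, the dendritic cell genes Cd209a, Clec9a and Flt3, and the neutrophil genes Csf3r, Ly6g, S100a8 and S100a9 had 0 UMIs in both libraries. Other members of those lists were detected. The 14 macrophage and monocyte markers, 8 of them detected in KO cells and 10 in control cells, summed to 231 CPM in KO cells and 214 CPM in control cells and had a UMI in 36.4% and 41.8% of cells. The 9 neutrophil markers summed to 31.6 CPM in KO cells and 29.6 CPM in control cells, and the 7 B cell markers to 4.21 and 1.63 CPM. Epithelial markers differed: 29 UMIs in 29 KO cells (15.3 CPM summed over 23 genes), against 4298 UMIs in 239 control cells (703 CPM). In the control library 94.3% of those UMIs lay in 5 cells, with 4043 in 1 cell. Rbp2, a vitamin A carrier gene of absorptive enterocytes, had 0 UMIs in KO cells and 350 UMIs (57.2 CPM) in control cells, and the 8 measured epithelial markers are among the genes counted as lower below. Natural killer and type 1 innate lymphoid markers summed to 206 CPM in KO cells and 100 CPM in control cells over 11 genes, of which Txk and Eomes, genes that T cells also express, made up 183 CPM in KO cells and 92.0 CPM in control cells. The rest of that list came to 23.7 CPM in KO cells and 8.34 CPM in control cells. Likewise summed, dendritic cell markers stood at 280 CPM in KO cells and 188 CPM in control cells over 12 genes, and markers of the other innate lymphoid cells, many of which Th cells share, at 1585 and 1738 CPM over 20 genes. Their part in the results was not tested, except where a value without such cells is given.

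A gene was counted as measured when its mean over both libraries was 10 CPM or more, and as higher or lower when the ratio of KO to control passed 1.5-fold. Of 6630 measured genes, 425 (6.41%) were higher and 535 (8.07%) lower in KO cells, and the median log2 ratio was -0.06. Single library pairs spread widely by themselves. By the same rule 1.62% of genes were higher and 2.73% lower in KO cells of colon lamina propria in batch 1, and 5.05% and 4.72% in batch 2. In colon epithelium it was 3.80% higher and 2.31% lower, in spleen of batch 1 3.40% and 1.60%, and in spleen of batch 2 5.55% and 2.93%. Either way, 14.5% of genes passed in the small intestine. Between libraries of the same genotype and tissue from the 2 batches it was 18.3% of genes in KO colon, 31.4% in control colon, 15.4% in KO spleen and 11.1% in control spleen. These shares depend on depth as well. The small intestinal KO library held 1899564 kept UMIs, against 5061875 to 13245323 in every other library. With every small intestinal cell thinned to 1000 UMIs, 617 genes were higher and 722 lower. Shares of pairs with unlike depth are therefore not directly comparable. Of the level classes, genes of 10 to 25 CPM passed most often (9.54% higher, 11.4% lower) and those of 100 to 1000 CPM less often (5.27% and 4.41%). The share called among all measured genes is the background for every list below.

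**Figure D1:**
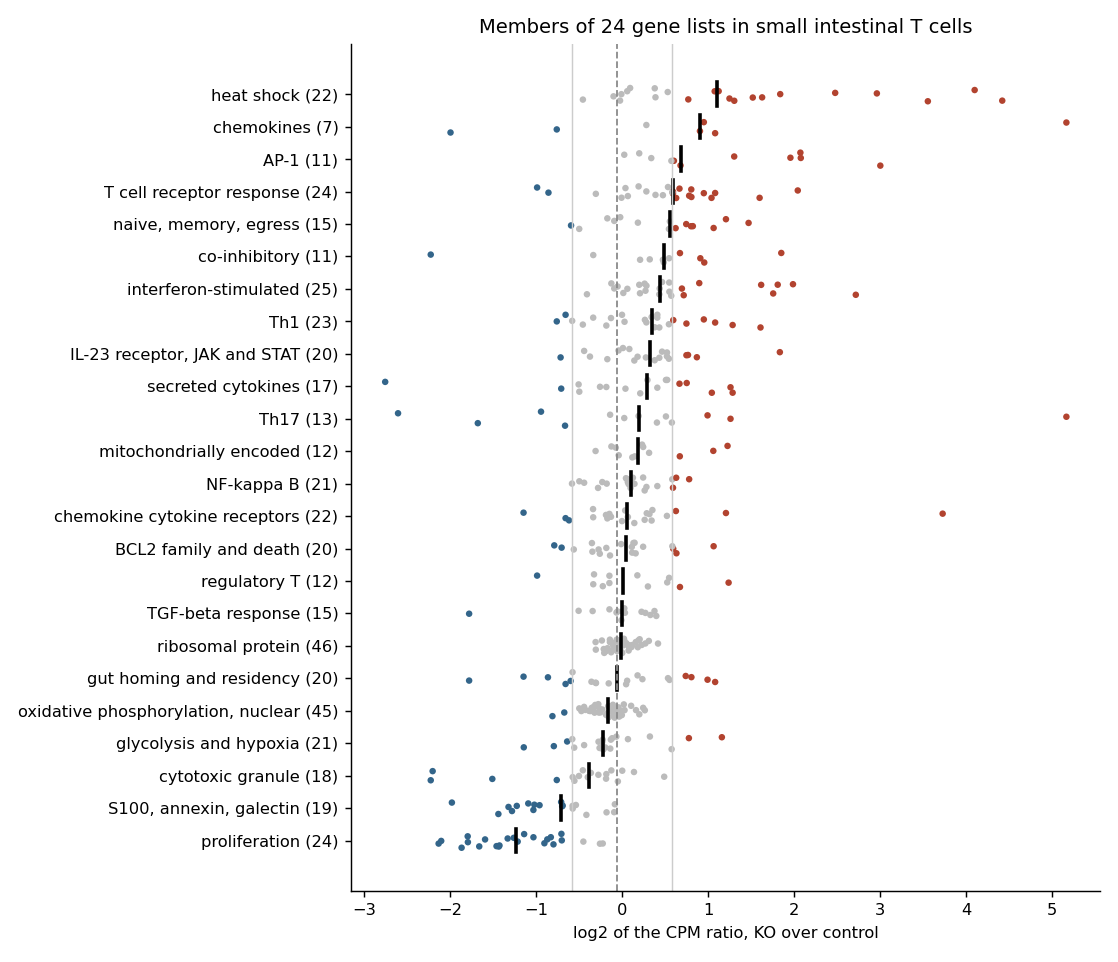
Log2 ratio of CPM, KO over control, for each measured member (dot) of 24 gene lists, with the number measured in brackets. Red and blue dots lie past 1.5-fold (thin grey lines), black bars are list medians, and the dashed line is the median of all 6630 measured genes at -0.06. Heat shock genes (median 1.10) lie at the top and proliferation genes (median -1.24) at the bottom.

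Il23r itself (ENSMUSG00000049093, chr6:67422932-67491855, mm10, minus strand) was near its detection limit. The kept KO cells held 7 UMIs (3.69 CPM, 1.48 to 7.59) and the control cells 19 UMIs (3.11 CPM, 1.87 to 4.85). The tags lie near the 3′ end of transcripts, and the sources used here do not say where the eGFP allele interrupts the gene, so these values check no label. Of the 20 measured genes of the IL-23 receptor, JAK and STAT list, 4 were higher and 1 lower, with a median log2 ratio of 0.33. Socs3, a feedback inhibitor that STAT3 induces, was at 193 CPM (174 to 214) in KO cells and 106 CPM (97.8 to 114) in control cells, a ratio of 1.83 (1.60 to 2.08). Jak2 stood at 54.2 CPM in KO cells and 31.9 CPM in control cells, and Il12rb2, the second subunit of the IL-12 receptor, at 102 and 60.8 CPM. Il12rb2 was not past 1.5-fold without the cells with heat shock UMIs described below (60.9 CPM in KO cells, 59.6 CPM in control cells). The fourth, Il6st, the shared receptor subunit of the IL-6 family, had 31 UMIs in KO cells and 28 in control cells (16.3 and 4.58 CPM), and the lower one was Tyk2 at 11.1 and 18.1 CPM. Il12rb1, the subunit that IL23R needs, gave a ratio of 1.46 (1.17 to 1.82), and Stat3 and Stat4 gave log2 ratios of 0.46 and 0.38, all within 1.5-fold.

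Among Th1 genes, 6 of 23 were higher and 2 lower, with a median log2 ratio of 0.34. Ifng (ENSMUSG00000055170, chr10:118441046-118445892), the interferon-gamma gene, was at 385 CPM (357 to 414) in KO cells and 158 CPM (148 to 168) in control cells, a ratio of 2.44 (2.21 to 2.69). A UMI of Ifng was found in 28.0% of KO cells and 22.4% of control cells, and in 19.0% and 11.1% after every cell had been thinned to 1000 UMIs, which left out 57 KO cells and 34 control cells. Positive KO cells held 3.23 UMIs on average, with 107 in the highest, and positive control cells held 2.11. Cells with no CD3 UMI gave 3.79% in the KO library (448 cells within the mitochondrial limit, median 1760.5 UMIs) and 9.68% in the control library (31 cells, median 1768 UMIs). The ratio was smaller in cells without heat shock RNA, described below. Without the cells that held a UMI of Hspa1a or Hspa1b, which left 301 KO cells and 1802 control cells, Ifng stood at 212 CPM in KO cells and 147 CPM in control cells, a ratio of 1.45. Tbx21, the gene of T-bet, did not pass, with 54.2 CPM (44.3 to 65.8) in KO cells and 45.1 CPM (40.0 to 50.8) in control cells. Eomes, a T-box factor related to T-bet, was at 47.4 CPM in KO cells and 15.5 CPM in control cells, a ratio of 3.05 (2.26 to 4.11). The other higher members were Xcl1 and Ccl3, chemokines of activated lymphocytes, with Il12rb2 and Irf1 (172 CPM in KO cells, 114 CPM in control cells), and the lower ones were Ccl5 and the chemokine receptor gene Cxcr6. Xcl1 was at 184 CPM in KO cells and 86.8 CPM in control cells, and Ccl3 at 53.7 and 27.8 CPM. Without the cells with heat shock UMIs, Xcl1 stood at 72.8 CPM in KO cells (49 UMIs) and 84.6 CPM in control cells (456 UMIs). Ccl3 was then at 11.9 CPM in KO cells (8 UMIs) and 25.1 CPM in control cells (135 UMIs). Neither was higher in KO cells there, but the KO values rest on few UMIs, so no reversal is read from them.

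Th17 genes showed no common direction, with 3 of 13 higher and 4 lower and a median log2 ratio of 0.19. Il17a (ENSMUSG00000025929, chr1:20730905-20734496), the cytokine that names Th17 cells, gave 113 CPM (98.6 to 129) in KO cells and 47.2 CPM (42.0 to 53.0) in control cells. Its cells ran the other way: 11 KO cells (1.36%, 0.682 to 2.42%) held 215 UMIs and 63 control cells (3.08%, 2.38 to 3.93%) held 289 UMIs. Of these, 7 KO cells and 8 control cells held 10 or more UMIs, and 3 KO cells and 28 control cells held 1. The level therefore rests on few cells, and no order is read from the share. Without the cells that held a UMI of Kit, Il23r, Fcer1g, Tyrobp, Ncr1 or Klrb1c, genes typical of innate lymphoid cells, Il17a was at 75 CPM in KO cells and 47.6 CPM in control cells, a ratio of 1.58. The cells left out had passed the CD3 gate, and T cells can express Il23r too. This value therefore does not tell innate cells from T cells. Il17f, its close relative, had 5 UMIs in KO cells and 9 in control cells. Ahr, the aryl hydrocarbon receptor gene, was at 114 CPM in KO cells and 57.4 CPM in control cells. Ccl20, the CCR6 ligand, had 78 UMIs in KO cells and 7 in control cells (41.1 and 1.14 CPM) and was picked out with its values known. On the lower side were Ltb4r1, a leukotriene B4 receptor gene (8.95 CPM in KO cells, 54.4 CPM in control cells), Il17re (5.26 and 16.8 CPM), Tmem176a (77.9 and 150 CPM) and Tmem176b (106 and 168 CPM).

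The epithelium-directed cytokine gene Il22 (chr10:118204942-118210047, ENSMUSG00000074695) stood at 356 CPM (330 to 384) in KO cells and 250 CPM (238 to 263) in control cells, a ratio of 1.42 (1.30 to 1.56). A UMI was found in 18.4% of KO cells and 6.56% of control cells, and in 9.85% and 3.78% at 1000 UMIs. Most positive KO cells held very little: 110 of 149 had 1 UMI, against 64 of 134 in control cells. Cells with 10 or more UMIs numbered 21 in the KO library and 35 in the control library. The cells with no CD3 UMI held far more, with 15669 CPM and 70.8% positive in the KO library and 5448 CPM and 29.0% positive in the control library. No order of expression between the libraries is read from the shares of kept cells. Fcer1g, an Fc receptor chain of innate cells, had a UMI in 3.59% of kept KO cells and 0.294% of kept control cells, and Cd74 in 16.2% and 13.2%. The order turned round in the cells with the most CD3 UMIs: at 10 or more CD3 UMIs per cell, Il22 stood at 195 CPM in 274 KO cells and 247 CPM in 976 control cells. How much RNA of the cells outside the gate adds to the Il22 of kept cells was not tested.

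**Figure D2:**
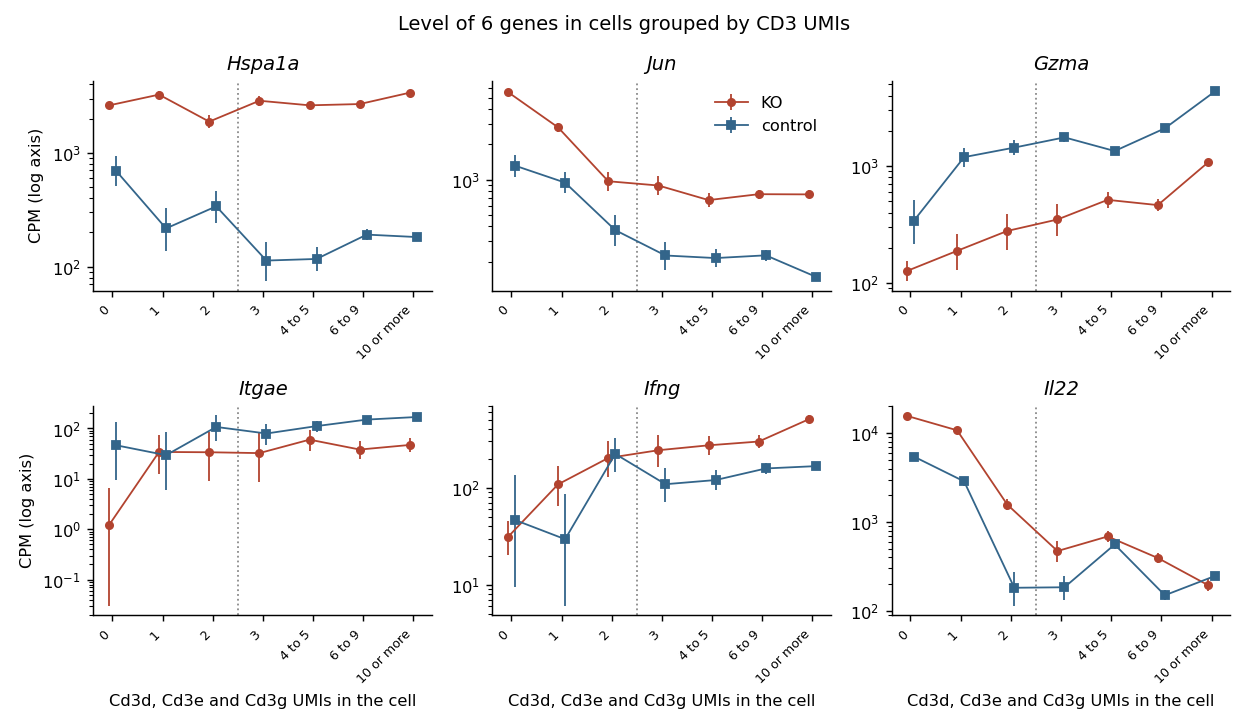
CPM (log axis, points with 95% Poisson intervals) of 6 genes in cells grouped by their UMIs of Cd3d, Cd3e and Cd3g, for the KO library (circles) and the control library (squares), with the gate at 3 UMIs as a dotted line. Hspa1a and Jun are higher, and Gzma and Itgae lower, in KO cells of every group inside the gate, while Il22 is higher in KO cells up to 6 to 9 UMIs and lower at 10 or more.

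Il10 and Foxp3 were sparse. Il10, the gene of an anti-inflammatory cytokine, had 20 UMIs in 12 KO cells and 8 UMIs in 6 control cells (10.5 CPM, 6.43 to 16.3, and 1.31 CPM, 0.565 to 2.58). Its ratio of 8.05 had an interval of 3.40 to 21.1, and its mean was too low for it to be counted as measured. Foxp3, the factor of regulatory T cells, had 3 UMIs in KO cells and 1 in control cells. Of the 12 measured genes of the regulatory list, 2 were higher and 1 lower. Ctla4, an inhibitory receptor gene, stood at 599 CPM in KO cells and 376 CPM in control cells, and Izumo1r, a folate receptor family gene, at 66.3 and 28.1 CPM, while Tnfrsf9, a costimulatory receptor gene, was at 16.3 and 32.4 CPM. Ikzf2 and Areg, an epidermal growth factor family ligand, gave ratios of 1.46 and 1.44 and did not pass. In the co-inhibitory list 4 of 11 genes were higher and 1, Cd160, was lower. Tox, a regulator of T cell exhaustion, was at 44.2 CPM (35.3 to 54.7) in KO cells and 12.3 CPM (9.64 to 15.4) in control cells, and Lag3 at 60.5 and 31.2 CPM. Cd200 was the fourth (22.1 and 11.8 CPM), and Pdcd1, the PD-1 gene, stayed within 1.5-fold at 27.9 CPM in KO cells and 19.9 CPM in control cells.

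Of 18 genes of cytotoxic granules, 0 were higher and 4 lower, with a median log2 ratio of -0.38. Gzma (ENSMUSG00000023132, chr13:113093825-113100981), a granule protease, was at 736 CPM (698 to 776) in KO cells and 3387 CPM (3341 to 3434) in control cells, a ratio of 0.217 (0.206 to 0.229). It was detected in 25.2% of KO cells (22.3 to 28.4%) and 58.1% of control cells (55.9 to 60.2%), and in 20.0% and 45.8% at 1000 UMIs. Positive KO cells held 6.85 UMIs on average and positive control cells 17.5, so both the share and the amount per positive cell were lower. In the CD3-negative cells 5.13% of the KO library and 22.6% of the control library held it. Cd160, a receptor of intraepithelial lymphocytes and natural killer cells, gave 62.1 CPM (51.4 to 74.4) in KO cells and 290 CPM (277 to 304) in control cells, with 10.6% and 39.3% of cells positive. In cells with no CD3 UMI the shares were 17.2% and 9.68%, so the KO share lies below that of these cells. Klrd1, the CD94 gene, stood at 25.8 CPM in KO cells and 73.4 CPM in control cells, and Ccl5, a chemokine stored in granules, at 8457 and 14315 CPM. Gzmb, the other main granzyme, ran apart from Gzma, at 1177 CPM (1129 to 1227) in KO cells and 838 CPM (816 to 862) in control cells. Its ratio of 1.40 lay within 1.5-fold and was 0.96 without the cells with heat shock UMIs. At 1000 UMIs, 31.3% of KO cells and 30.5% of control cells held Gzmb.

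Homing and residency genes split, with 4 of 20 higher and 5 lower. The lower ones included integrin and chemokine receptor genes known from intestinal T cells. Itgae (ENSMUSG00000005947, chr11:73090583-73147446), the CD103 integrin chain that binds epithelial E-cadherin, stood at 45.3 CPM (36.2 to 55.9) in KO cells and 155 CPM (146 to 165) in control cells, and was found in 8.54% and 28.6% of cells (3.99% and 13.7% at 1000 UMIs). In cells with no CD3 UMI, 0.223% of the KO library and 9.68% of the control library held it. Ccr9, the chemokine receptor for homing to the small intestine, was at 101 CPM (87.3 to 116) in KO cells and 224 CPM (212 to 236) in control cells. Itgb7, which pairs with the chains of Itgae and Itga4, gave 305 CPM in KO cells and 554 CPM in control cells, and Itga1 16.8 and 25.5 CPM. Cxcr6 was at 459 CPM in KO cells and 723 CPM in control cells. Higher were Ahr, Xcl1, Gpr55 (22.1 CPM in KO cells, 13.2 CPM in control cells) and Cd69, which holds T cells in tissue and marks activation (640 and 366 CPM). Gzma and Itgae occurred together in 3.96% of KO cells and 21.8% of control cells, and Gzma and Cd160 together in 3.84% and 28.2%. Among Gzma-positive cells, 15.7% of KO cells and 37.5% of control cells held Itgae, and among Gzma-negative cells 6.13% and 16.3%. In the TGF-beta response list, to which Itgae also belongs, it was the 1 gene of 15 past 1.5-fold, and the median log2 ratio was 0.00. Tgfb1 and Smad7, the ligand and an inhibitor of the pathway, gave ratios of 0.704 and 1.30.

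Other genes were lower in KO cells by as much. Cd7, an immunoglobulin family receptor of T and natural killer cells, stood at 112 CPM (97.1 to 128) in KO cells and 446 CPM (430 to 463) in control cells, and Ermn, which encodes an actin-binding protein, at 7.90 and 55.9 CPM. S100 proteins, annexins and galectins, which bind calcium, membranes and sugars, were lower as a group: 12 of 19 were lower, 0 higher, and the median log2 ratio was -0.71. S100a4 was at 99.5 CPM (85.8 to 115) in KO cells and 392 CPM (377 to 408) in control cells, with 8.17% and 35.1% of cells positive, against 13.6% and 19.4% of the cells with no CD3 UMI. S100a6 stood at 616 CPM in KO cells and 1538 CPM in control cells, Lgals1, the galectin-1 gene, at 1045 and 2538 CPM, and Crip1, a LIM domain gene of the same list, at 997 and 2330 CPM. Per cell, the list made up a median of 45.6 of 10000 UMIs in KO cells and 76.6 in control cells, and 1.36% of KO cells exceeded the 90th percentile of control cells.

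**Figure D3:**
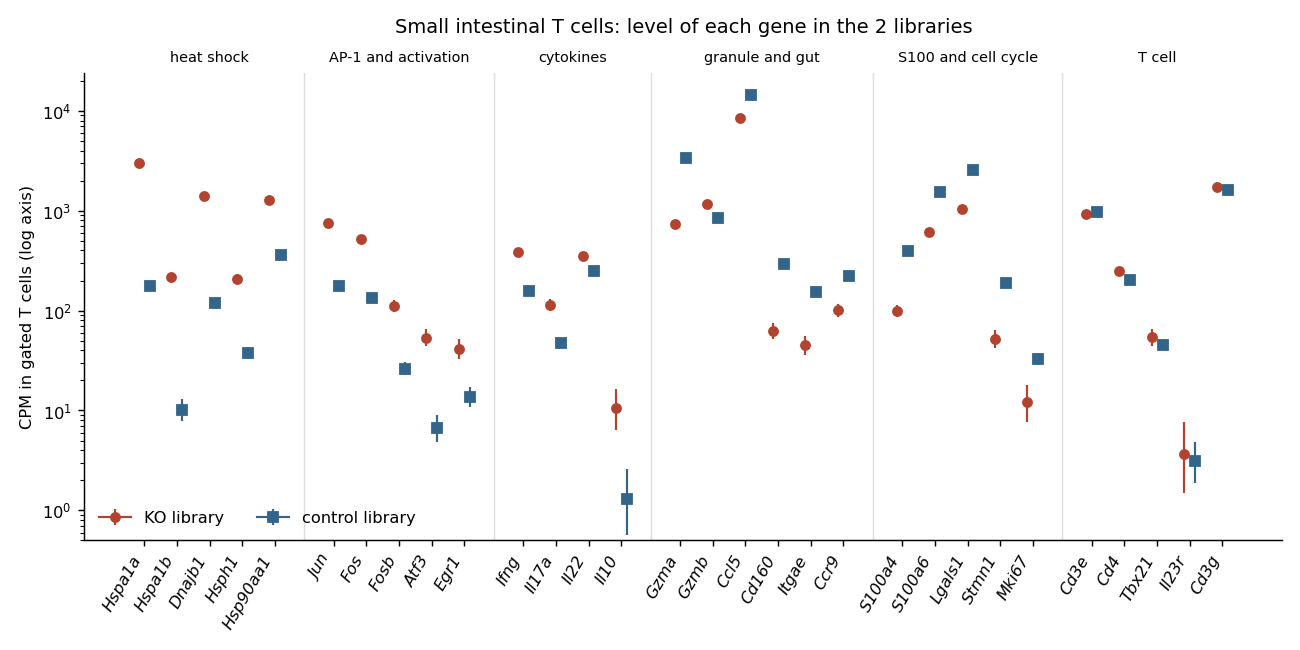
CPM of 30 genes (log axis) in the kept cells of the KO library (red circles) and the control library (blue squares), with 95% Poisson intervals that cover counting error only. The heat shock and AP-1 genes stand higher in KO cells (Hspa1a 3000 against 175 CPM), Gzma, Cd160, Itgae and S100a4 lower, and Cd3e, Cd4 and Tbx21 lie close together. Cd3e and Cd3g are part of the gate, so their levels are not independent of it.

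Proliferation genes were lower with few exceptions: 21 of 24 passed 1.5-fold, 0 were higher, and the median log2 ratio was -1.24. Rrm2, a ribonucleotide reductase subunit that supplies DNA synthesis, was at 16.8 CPM (11.5 to 23.8) in KO cells and 73.9 CPM (67.2 to 81.0) in control cells. Stmn1, a microtubule regulator, stood at 52.1 and 190 CPM, Birc5, the survivin gene, at 21.1 and 73.1 CPM, and Mki67, the classical cycling marker, at 12.1 CPM (7.68 to 18.2) and 32.7 CPM (28.3 to 37.6). Fewer KO cells cycled by these markers. Cells with 3 or more UMIs of 8 cycling markers made up 1.49% of KO cells (12 cells, 0.770 to 2.58%) and 6.02% of control cells (123 cells, 5.03 to 7.14%). With 2 or more such UMIs of 1000, the shares were 0.799% and 3.04%. Without the cycling cells the list median was -0.26, Mki67 stood at 4.94 CPM in KO cells and 6.65 CPM in control cells, and Stmn1 at 17.0 and 33.1 CPM. In cells of 1500 to 4000 UMIs (599 KO cells and 1471 control cells) the list median was -0.36. The upper limit leaves out a larger share of control cells, whose 90th percentile was 4707 UMIs, against 3419 in KO cells. How many of the cells left out were cycling was not counted.

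The heat shock list differed most in the other direction. Of 22 measured genes 13 were higher, 0 were lower, and the median log2 ratio was 1.10, against -0.06 for all measured genes. These genes encode chaperones that fold proteins and are known to be induced together by heat shock factors when proteins unfold. Hspa1a (ENSMUSG00000091971, chr17:34969190-34972156, minus strand), the inducible HSP70, was at 3000 CPM (2922 to 3079) in KO cells and 175 CPM (165 to 186) in control cells, a ratio of 17.1 (16 to 18.3). Hspa1b (chr17:34956436-34959238), its neighbour, stood at 217 and 10.1 CPM. The copies are nearly identical, so reads can be assigned to the wrong one or lost, and their separate levels are uncertain. Dnajb1, the HSP40 co-chaperone, had 2649 UMIs in KO cells and 726 in control cells, a ratio of 11.8 (10.8 to 12.8). Hsph1, an HSP110 exchange factor, stood at 208 CPM in KO cells and 37.4 CPM in control cells, Bag3, a co-chaperone of HSP70, at 39.5 and 5.07 CPM, and Hsp90aa1, the inducible HSP90, at 1282 and 358 CPM. Mitochondrial chaperones of the list were higher too, Hspe1 at 804 CPM in KO cells and 260 CPM in control cells and Hspd1 at 367 and 149 CPM. Hspa5, the chaperone of the endoplasmic reticulum, gave a log2 ratio of 0.06, and Hsf1, the regulator itself, -0.46.

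Promoter sequences are shown for 3 of these genes, because the pair of HSP70 copies has nearly the same promoter and because the heat shock element, whose core is an inverted GAA repeat, can be read in them. They come from RefSeq (GRCm38.p6) and run 5′ to 3′ from 250 bases before to 50 bases after the annotated start, with matches to the letters GAANNTTC, which reads the same on both strands, in capitals. They lie at chr17:34972107-34972406 (minus strand) for Hspa1a, chr17:34959189-34959488 (minus strand) for Hspa1b and chr1:55087898-55088197 (plus strand) for Hspe1.
Hspa1a: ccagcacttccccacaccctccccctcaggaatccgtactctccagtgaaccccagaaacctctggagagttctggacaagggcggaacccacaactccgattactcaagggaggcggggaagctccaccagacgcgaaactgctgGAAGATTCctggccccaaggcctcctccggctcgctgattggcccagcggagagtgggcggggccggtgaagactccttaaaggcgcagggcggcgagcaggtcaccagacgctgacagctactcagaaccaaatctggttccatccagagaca
Hspa1b: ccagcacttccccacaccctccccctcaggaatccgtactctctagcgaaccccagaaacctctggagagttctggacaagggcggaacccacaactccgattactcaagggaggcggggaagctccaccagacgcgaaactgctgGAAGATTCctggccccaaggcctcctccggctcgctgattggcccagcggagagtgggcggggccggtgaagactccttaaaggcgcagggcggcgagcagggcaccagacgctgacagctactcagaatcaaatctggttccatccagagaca
Hspe1: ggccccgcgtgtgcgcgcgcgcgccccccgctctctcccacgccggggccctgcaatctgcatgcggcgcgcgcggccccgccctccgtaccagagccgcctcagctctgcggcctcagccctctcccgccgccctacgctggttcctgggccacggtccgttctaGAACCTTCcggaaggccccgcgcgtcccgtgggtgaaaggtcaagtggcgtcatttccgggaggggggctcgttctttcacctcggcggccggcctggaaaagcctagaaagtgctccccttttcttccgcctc
The Hspa1a and Hspa1b windows differ at 4 of 300 positions, and the match lies at the same place in both. Hspe1 and Hspd1 are transcribed away from each other, and one of the Hspd1 windows shares 285 bases with that of Hspe1, the match included. These letters occur in 7.86% of 32851 RefSeq promoter windows and in 7.0% of the 5156 measured genes that have one (361 genes). A window was found for 17 of the 22 measured heat shock genes, of which 9 held a match: 7 of the 10 that were higher and 2 of the 7 within 1.5-fold. Dnajb1, with the third largest ratio of the list, had no match in its windows. A match is a string of letters and not a measured binding site.

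The heat shock difference was spread over most cells. UMIs of the list made up a median of 142 of 10000 in KO cells (10th to 90th percentile 62.9 to 356) and 68.7 in control cells (42.5 to 112), and 62.6% of KO cells lay above the 90th percentile of control cells. Hspa1a was found in 59.7% of KO cells (56.2 to 63.1%) and 10.8% of control cells (9.46 to 12.2%), and in 50.1% and 7.02% at 1000 UMIs. In the KO library the cells with no CD3 UMI stood almost as high as the kept cells, with 54.9% positive and 2613 CPM. In the control library the 31 such cells stood higher than the kept cells, with 16.1% positive and 699 CPM (510 to 935). Within the gate Hspa1a was at 2618 to 3385 CPM in KO cells and 113 to 191 CPM in control cells, whichever number of CD3 UMIs a cell had. Without the cells with Hspa1a or Hspa1b, Dnajb1 still stood at 511 CPM in KO cells and 98.5 CPM in control cells. Of the 74 named genes past 1.5-fold that could be compared without those cells, 11 were then no longer past it: Ifng, Xcl1, Ccl3, Cxcl10, Il12rb2, Il27ra, Nfkbia, Tnfaip3, Casp4, Cox5a and Tpi1. Hspa1a-positive and Hspa1a-negative cells differed little in Gzma within a library: 27.8% and 21.5% of KO cells held it, against 64.1% and 57.3% of control cells. For Ifng it was 33.2% and 20.2% of KO cells and 33.6% and 21.0% of control cells.

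**Figure D4:**
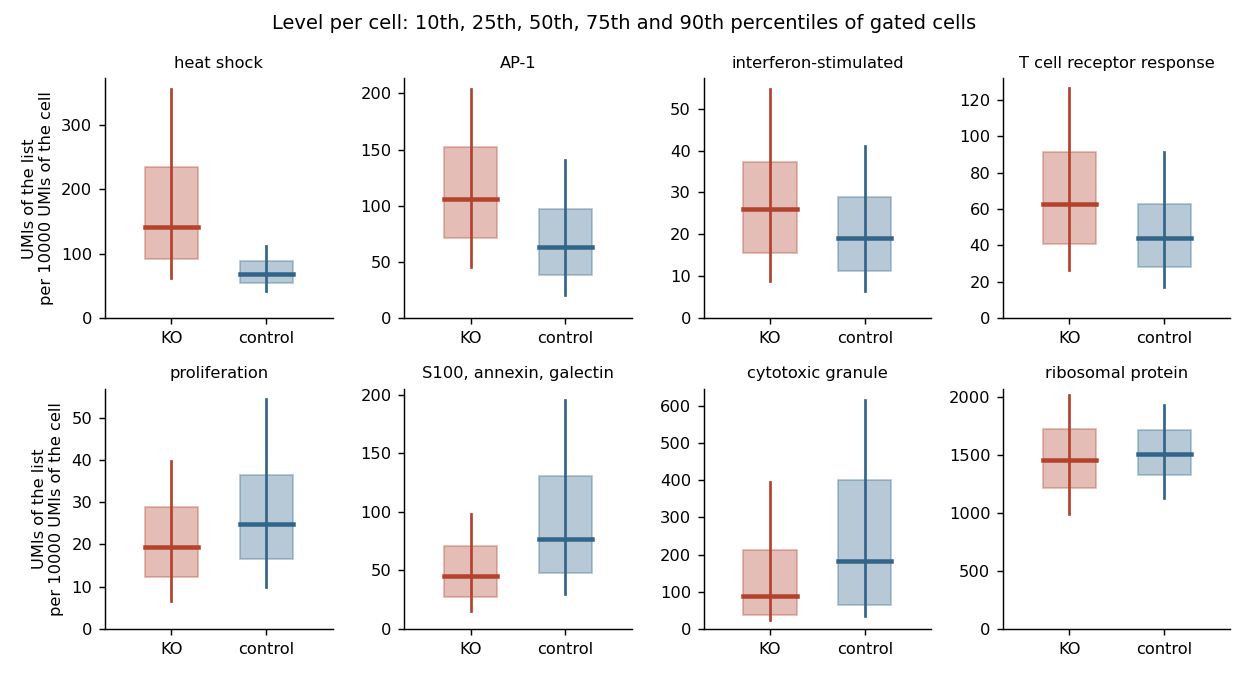
UMIs of 8 gene lists per 10000 UMIs of a cell, for KO cells (left in each panel) and control cells (right); the thick line is the median, the box the 25th to 75th and the thin line the 10th to 90th percentile. Heat shock (median 142 against 68.7) is shifted over most of its range, the S100 list (45.6 against 76.6) downwards, and ribosomal protein genes (1453 against 1509) overlap.

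Immediate early genes, which T cells switch on within minutes of a stimulus, were higher as well. In the AP-1 list 7 of 11 genes were higher and 0 lower (median log2 ratio 0.68). Jun (ENSMUSG00000052684, chr4:95049034-95052222) was at 748 CPM (709 to 787) in KO cells and 178 CPM (167 to 189) in control cells, Fos at 522 CPM (490 to 555) and 134 CPM (125 to 144), Fosb at 111 and 26.3 CPM, and Atf3, a stress-induced factor, at 53.7 and 6.70 CPM. Jun and Fos were found together in 27.8% of KO cells and 7.88% of control cells. Both stood still higher in cells with no CD3 UMI, Jun at 5597 CPM in the KO library and 1319 CPM in the control library. Inside the gate Jun ran at 670 to 893 CPM in KO cells and 149 to 227 CPM in control cells over the groups by CD3 UMIs, and without the cells with heat shock UMIs its ratio was 2.81. Klf4, a zinc finger factor, gave 85 UMIs in KO cells and 52 in control cells, a ratio of 5.26 (3.69 to 7.58). Of 24 genes of the T cell receptor response, 12 were higher and 2 lower (median 0.59). Egr1, an early growth response factor, was at 41.6 CPM in KO cells and 13.7 CPM in control cells, Ier5 at 424 and 206 CPM, Nr4a3 at 40.5 and 23.2 CPM, and Nfkbia, the NF-kappa B inhibitor, at 1755 and 1164 CPM. The lower ones were Tnfrsf9 and Dusp2, a phosphatase that restrains MAP kinases (102 CPM in KO cells, 184 CPM in control cells). In the NF-kappa B list the 3 higher genes of 21 were Nfkbiz (310 and 180 CPM) and the feedback inhibitors Nfkbia and Tnfaip3 (889 and 575 CPM). Without the cells with heat shock UMIs the ratio was 1.10 for Nfkbia, 1.38 for Tnfaip3 and 1.91 for Nfkbiz. Malat1, a nuclear long noncoding RNA named after its values were seen, stood at 37214 CPM in KO cells and 14677 CPM in control cells. In cells with no CD3 UMI it was at 46074 and 29229 CPM, so the difference was not particular to kept cells. From 3 CD3 UMIs to 10 or more, Malat1 went from 47057 to 31769 CPM in KO cells and from 20006 to 12347 CPM in control cells. AY036118, among the 12 largest higher ratios, stood at 95.3 CPM in KO cells and 20.3 CPM in control cells.

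Interferon-stimulated genes had 8 of 25 members higher and 0 lower (median 0.44). Ifi27l2a was at 684 CPM (647 to 722) in KO cells and 202 CPM (191 to 214) in control cells, and in 49.0% and 29.8% of cells. Rtp4 stood at 39.0 CPM in KO cells and 11.1 CPM in control cells, Isg15, a ubiquitin-like modifier, at 222 and 119 CPM, and Zbp1, a nucleic acid sensor, at 118 and 72.1 CPM. Of the genes of naive and memory cells, 7 of 15 were higher and 1 lower (median 0.56). Tcf7, the TCF1 factor of stem-like T cells, was at 204 CPM (184 to 226) in KO cells and 117 CPM (109 to 126) in control cells, and Ccr7, the lymph node homing receptor, at 77.4 and 33.5 CPM. Bcl2, a survival gene, stood at 210 CPM in KO cells and 100 CPM in control cells. Klf2, which drives exit from tissue, had a ratio of 1.46 and did not pass, its target S1pr1 gave a log2 ratio of -0.09, and the lower gene was S1pr4 (89.5 and 135 CPM).

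Among secreted cytokines 5 of 17 were higher and 2 lower. Besides Ifng and Il17a, the tumour necrosis factor ligands Tnfsf8 (479 CPM in KO cells, 232 CPM in control cells), Tnfsf11 (103 and 61.3 CPM) and Cd40lg (207 and 130 CPM) were higher, and Penk, the enkephalin precursor (5.79 and 39.1 CPM), and Tnfsf10, the TRAIL gene (14.2 and 23.2 CPM), were lower. Of 7 chemokines, 4 were higher (Ccl20, Xcl1, Ccl3 and Cxcl10 at 99.5 and 53.1 CPM) and 2 lower (Ccl5 and Ccl1 at 9.48 and 37.8 CPM). Without the cells with heat shock UMIs, Cxcl10 stood at 66.8 CPM in KO cells (45 UMIs) and 54.7 CPM in control cells (295 UMIs). The median log2 ratio of the chemokines, 0.91 in all kept cells, was then -0.50. Xcl1 and Ccl3 then held only 49 and 8 UMIs in KO cells. Of 22 cytokine and chemokine receptors 3 were higher (Ccr7, Cxcr5 and Il27ra, at 54.2 CPM in KO cells and 35.1 CPM in control cells) and 3 lower (Ccr9, Cxcr6 and Ccr4, at 16.8 and 25.8 CPM). Cxcr5, a follicle homing receptor that innate lymphoid cells also express, had 37 UMIs in KO cells and 9 in control cells.

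Ribosomal protein and nuclear respiratory genes mostly stayed within 1.5-fold. None of 46 ribosomal protein genes passed (median -0.01), the extremes being Rps27 with a log2 ratio of 0.42 and Rpl24 with -0.31. Of 45 nuclear genes of oxidative phosphorylation, 2 were lower, Sdhb (132 CPM in KO cells, 232 CPM in control cells) and Cox5a (354 and 564 CPM), and the median was -0.16. Among 12 mitochondrially encoded genes 3 were higher, mt-Atp8 (72.6 CPM in KO cells, 31.1 CPM in control cells), mt-Nd4l (71.6 and 34.3 CPM) and mt-Nd2 (559 and 351 CPM). Glycolysis and hypoxia genes had 2 of 21 higher, Hk2, the inducible hexokinase (53.7 CPM in KO cells, 24 CPM in control cells), and P4ha1, a collagen prolyl hydroxylase (13.2 and 7.68 CPM). The 3 lower ones were Ero1l (23.7 CPM in KO cells, 52.3 CPM in control cells), Ddit4 (51.6 and 89.4 CPM) and Tpi1 (38.4 and 59.8 CPM). In the BCL2 family and death list 3 of 20 were higher, Bcl2, Casp4 (141 CPM in KO cells, 90.7 CPM in control cells) and Bcl2l11, the BIM gene (59.5 and 39.4 CPM), and 2 lower, Bcl2a1a (16.8 and 29.1 CPM) and Bad (17.4 and 28.3 CPM).

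The same ratio was taken in the other tissues, each KO library against the control library of its own tissue and batch, with the same gate. Of the 350 genes higher in the small intestine and measured in both tissues, 140 (40.0%) were also higher in colon lamina propria of batch 2, which is 45.5% of the 308 higher there, where 4.9% of all genes measured in both were higher. For lower genes it was 118 of 501 (23.6%), or 41.7% of the 283 lower there, against 4.50% of all. The batch 1 pair of the same tissue did not show this: of 340 higher genes 8 (2.35%) were higher and 35 (10.3%) lower there, where 1.42% of all genes were higher and 2.45% lower. Of 427 lower genes 3 were lower there and 30 higher. Colon epithelium of batch 2 shared 97 of 346 higher genes (28.0%) and 64 of 517 lower genes (12.4%), where 3.14% of all genes measured in both were higher and 2.05% lower. Spleen of batch 1 shared 35 of 307 higher genes (11.4%, against 2.49% of all), and spleen of batch 2 shared 47 of 317 (14.8%, against 4.14% of all). Of the lower genes, spleen of batch 1 shared 18 of 481 (3.74%), where 1.13% of all genes were lower. Another 20 (4.16%) were higher there, against 2.49% of all. Spleen of batch 2 shared 40 of 498 (8.03%) and had 60 higher, where 2.61% of all genes were lower and 4.14% higher. These pairs share no library with the small intestinal pair, but the batch 2 libraries share a batch. Whether small intestinal T cells of batch 1 would give these ratios cannot be told, because the small intestine was in batch 2 only.

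Several single genes also differed between the batches. Hspa1a was at 4416 CPM in KO cells and 37.7 CPM in control cells of batch 2 colon lamina propria, and at 936 and 852 CPM in batch 1. Its ratio was 68.8 in colon epithelium, 37.3 in spleen of batch 2 (66.9 against 1.79 CPM) and 3.20 in spleen of batch 1. The heat shock list had median log2 ratios of 0.13 (batch 1) and 1.31 (batch 2) in colon lamina propria, and 0.07 in colon epithelium. Its spleen medians were 0.06 (batch 1) and 0.09 (batch 2). In the same order the AP-1 list gave -0.13, 1.19, 0.30, 0.39 and -0.20. Gzma stood at 641 CPM in KO cells and 1784 CPM in control cells of batch 2 colon lamina propria, 671 and 601 CPM in batch 1, 3456 and 4600 CPM in colon epithelium, 376 and 2255 CPM in batch 2 spleen, and 1150 and 935 CPM in batch 1 spleen. Itgae had the same direction as Gzma in the small intestine and in batch 2 colon lamina propria, with 22.3 CPM in KO cells and 62.4 CPM in control cells there and 15.6 and 17.8 CPM in batch 1. Itgae stood at 168 and 201 CPM in colon epithelium, 4.02 and 19.4 CPM in batch 2 spleen, and 31.8 and 8.24 CPM in batch 1 spleen. Il17a was higher in KO cells of both colon lamina propria pairs, at 51.7 CPM in KO cells and 17.3 CPM in control cells of batch 1 and 32.4 and 15.0 CPM of batch 2. In colon epithelium Il17a was at 9.45 CPM in KO cells and 12.3 CPM in control cells. Ifng was lower in KO cells of batch 1 colon lamina propria (225 CPM, against 264 CPM in control cells) and higher in batch 2 (347 CPM, against 214 CPM). In colon epithelium, also of batch 2, Ifng was lower in KO cells (327 CPM, against 522 CPM). In spleen it was at 48.6 CPM in KO cells and 64.4 CPM in control cells of batch 1, and at 77.6 and 35.5 CPM of batch 2. The small intestinal level of Ccr9 was the highest of the tissues in both genotypes, 101 CPM in KO cells and 224 CPM in control cells, against 2.17 to 25.6 CPM in the other KO libraries and 2.51 to 31.6 CPM in the other control libraries. The median log2 ratio of the S100 list was -0.02 in batch 2 colon lamina propria and -0.12 in colon epithelium, nearer to 0 than in the small intestine. S100a4 itself was lower in KO cells of both pairs, with log2 ratios of -1.10 and -1.35. Its log2 ratio was 0.42 in batch 1 colon lamina propria, -0.13 in batch 1 spleen and 0.44 in batch 2 spleen. Proliferation genes had a median of -0.64 in batch 2 colon lamina propria, 0.29 in batch 1, -0.58 in colon epithelium, -0.28 in batch 1 spleen and 0.85 in batch 2 spleen. The naive and memory list had a median of 0.56 in the small intestine and -0.54 in batch 2 colon lamina propria. With 1 pair in the small intestine, none of these differences between tissues could be tested.

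**Figure D5:**
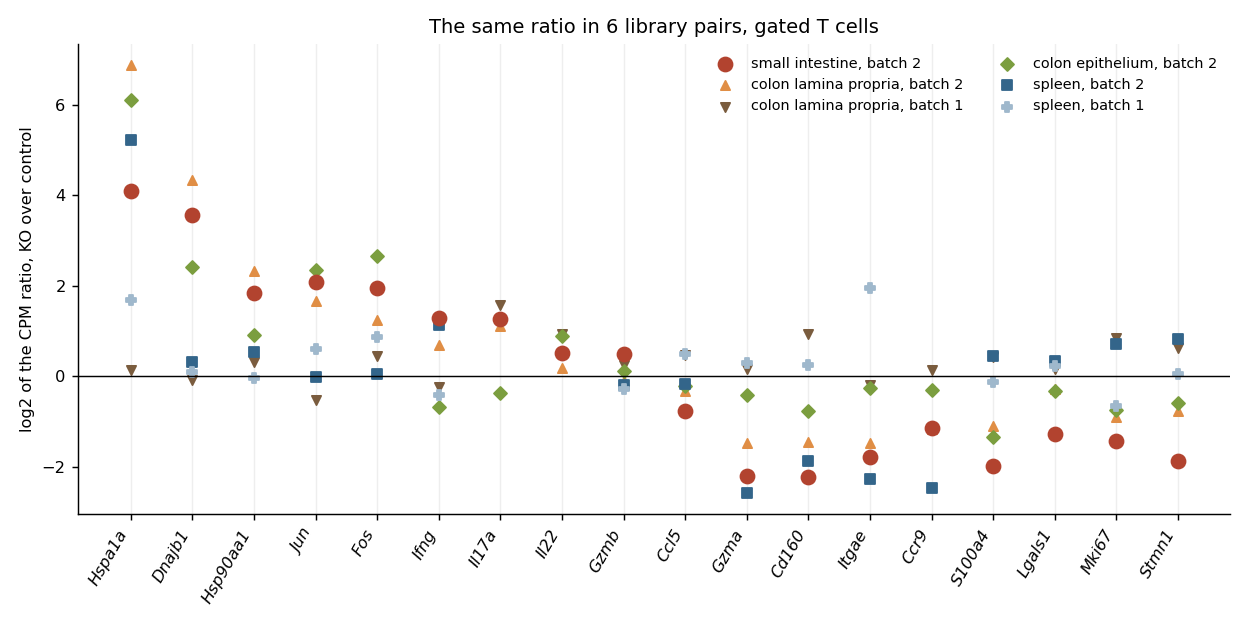
Log2 ratio of CPM, KO over control, of 18 genes in kept T cells of 6 library pairs, each KO library against the control library of its own tissue and batch; points with a mean under 10 CPM in a pair are left out. Hspa1a is 4.10 in the small intestine, 6.87 in batch 2 and 0.14 in batch 1 of colon lamina propria, and Gzma is -2.20, -1.48 and 0.16.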

How the data were processed

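Libraries were made with the 10x Chromium 3′ version 2 chemistry, per the labels' protocols. The authors deposited 1 matrix of UMI counts (18601 genes by 32763 cells, whole numbers) with a table that gives the library and batch of every cell. Cell Ranger 2.0.2 and the mm10 build come from the submitters' processing notes, but the filters on cells and genes before deposit are not stated in them or the labels. Libraries were assigned by name, and 2 columns of the cell table were not used. T cell receptor and immunoglobulin segments were not analysed here. The batch number equalled the replicate number in all 32763 cells.

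Counts of kept cells were summed per library and scaled to CPM. Intervals are exact Poisson for CPM, exact conditional for ratios and exact binomial for shares, at 95%. Cells were thinned to 1000 UMIs in 1 seeded draw. No test, clustering or doublet caller was run. The interval and the fold call were checked on simulated counts. Gene positions came from GENCODE vM21, and promoters from RefSeq. Python 3.11.15, numpy 2.4.6, scipy 1.17.1 and pandas 2.3.3 were used, with edgeR 4.0.16 for TMM factors only.

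Named genes were 17 fixed ones (1 more is not reported here), the 12 largest ratios each way with a mean of 25 CPM or more (predicted genes, clones and markers of other cell types left out), and up to 4 members per list with the largest ratios. Where 5 or fewer members of a list passed, those were named as well. The members, the 24 pathway lists, the 15 marker lists and the alternatives were chosen with earlier results of these data known.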

Additional observations from a re-analysis of the deposited data

Results flagged for a closer look

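Some signals lay in cells that the comparison did not use. In the 448 KO cells with no CD3 UMI, Il22 reached 15669 CPM, against 5448 CPM in the 31 such cells of the control library. Il23r stood at 102 CPM there (85 UMIs), with 0 UMIs in the control library's 31 cells, which allows up to 57.3 CPM. Fcer1g was at 1725 CPM in these KO cells and 1257 CPM in these control cells.

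For 8 named genes the small intestinal pair lay past 1.5-fold on one side and both pairs of another tissue on the other side of 0 (log2 ratios, KO over control). The rule used only the sign in the other tissue, and several of those values, such as Cxcr6 in spleen, lie near 0. These differences were not tested. Tcf7 was 0.80 in the small intestine, and -0.17 and -0.54 in colon lamina propria of batch 1 and batch 2. Against spleen of batch 1 and batch 2, Stmn1 was -1.87 (spleen 0.06 and 0.82), Socs3 0.87 (-0.80 and -0.40), Bcl2 1.06 (-0.38 and -1.22) and Tpi1 -0.64 (0.09 and 0.20). S100a6 was -1.32 (0.20 and 0.11), Lgals1 -1.28 (0.23 and 0.35) and Cxcr6 -0.66 (0.22 and 0.00).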

How the results depend on the processing

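Of 425 higher and 535 lower genes, a stricter gate of 10 CD3 UMIs, added after the data were seen, gave 643 higher. No gate gave 898 higher. A mean of 5 CPM or more gave 692 higher and 816 lower, a mean of 25 CPM 203 and 271, no filter 2138 and 1611, and 2-fold in place of 1.5-fold 123 and 132. The other 32 counts, among them those with TMM factors (0.993 for KO, 1.01 for control), thinned cells or cells of equal weight, stayed within 1.5 times. Cells with Hspa1a or Hspa1b were left out in an alternative also added later. The log2 ratio was then -0.22 for Xcl1, -1.08 for Ccl3 and -0.50 for the chemokine median. Xcl1 and Ccl3 rested there on 49 and 8 UMIs in KO cells, so no reversal is read from these values. Without a gate Tmem176a turned to 1.88 and Tpi1 to 0.073. The causes were not tested. Of 76 named genes past 1.5-fold, 52 stayed past it under every alternative and 24 did not under 1 or more. Without cycling cells 9 did not, Asf1b, Bcl2l11, Casp4, Il27ra, Mki67, Tnfaip3, Tnfsf11, Tpi1 and Tyms. Gzma, Itgae, Ccr9, Cd160, Hspa1a, Dnajb1, Jun and Fos kept their side and stayed past 1.5-fold under every alternative in which they could be measured. Il17a had a log2 ratio of 0.66 without cells with innate lymphoid markers, an alternative also added later, and 0.63 to 1.89 over all alternatives, and Il22 ran from -0.34 to 3.89. No paired analysis was possible because the small intestine had 1 library per genotype. Genes at 10 CPM rest on about 19 UMIs in the KO library, so small ratios there were not detectable at this depth.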
